A study of Mus musculus with 503 samples.

Results

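The 10 genes described here are commonly used to recognise pericytes: *Kcnj8*, *Abcc9*, *Rgs5*, *S1pr3*, *Atp13a5*, *Higd1b*, *Ndufa4l2*, *Cspg4*, *Cd248* and *Anpep*. They were taken by symbol from a single-cell count matrix, in which all 10 of the 10 symbols were found among 56701 genes. The cells were perivascular cells of the mouse spinal cord, labelled female throughout, although the study's methods name both sexes for its sequencing experiments. All groups carried the same genotype, GLAST-CreERT2;R26R-tdTomato;Pdgfrb-eGFP: tamoxifen-induced Cre under GLAST (*Slc1a3*) control switches on tdTomato, and EGFP marks cells with an active *Pdgfrb* promoter. EGFP+ cells with or without tdTomato were sorted from uninjured cord or from crush lesions, which the sample labels place at 3 days after spinal cord injury (SCI) although the series description speaks of a later day. This gave 4 groups, named here uninjured tdTomato+, uninjured tdTomato-, 3-day tdTomato+ and 3-day tdTomato-, with 468 cells in all after filtering. GLAST and *Pdgfrb* are both active in more than 1 perivascular cell type, so neither reporter marks pericytes alone.

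Pericytes sit in the basement membrane of capillaries, contact endothelial cells and contribute to the blood-brain and blood-spinal cord barriers. *Kcnj8* and *Abcc9* encode the pore (Kir6.1) and the regulatory subunit (SUR2) of an ATP-sensitive potassium channel of mural cells. *Rgs5* dampens G-protein signalling, *S1pr3* is a receptor for sphingosine 1-phosphate, and *Atp13a5* is a transport ATPase used as a marker of pericytes of the central nervous system. *Higd1b* and *Ndufa4l2* encode small mitochondrial proteins, and *Cspg4* (NG2), *Cd248* (endosialin) and *Anpep* (CD13, an aminopeptidase) encode cell surface proteins. *Cspg4* is also made by smooth muscle and oligodendrocyte precursors, and *Cd248* and *Anpep* by fibroblasts.

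Each labelled sample was 1 cell and the labels name no animal, so each group counted as 1 sample: differences between groups have no test, and the intervals given (95% exact Poisson for levels, 95% exact Clopper-Pearson for shares of cells) cover counting error only. Levels are counts per 1000000 counts (CPM) in the summed cells of a group. Plates 209 and 213 held 65 and 72 uninjured tdTomato+ cells and 46 and 60 uninjured tdTomato- cells. Plates 211 and 215 held 88 and 34 3-day tdTomato+ cells and 58 and 45 3-day tdTomato- cells. Both sorts were thus on every plate, whereas injury and plate cannot be told apart. Differences between the sorts are of the summed cells, which mix plates, and a call also needed the same sign within both plates. Median depth was 204006 to 271660 counts per cell in the 4 groups, but 14770 in the 34 tdTomato+ cells of plate 215, which gave only 5.39% of the counts of the 3-day tdTomato+ group. *Slc1a3*, the gene whose promoter drives Cre, was at 211.5 and 206.5 CPM in the uninjured and 3-day tdTomato+ groups and at 31.5 and 10.7 CPM in the tdTomato- groups. Immune markers (5 genes) summed to at most 62.4 CPM and oligodendrocyte lineage markers (5 genes) to at most 68.6 CPM in any group. Astrocyte markers (4 genes) summed to at most 267.2 CPM, in uninjured tdTomato- cells. Vascular smooth muscle (vSMC) markers (7 genes) summed to 1104, 3182, 1488 and 2761 CPM in the uninjured tdTomato+, uninjured tdTomato-, 3-day tdTomato+ and 3-day tdTomato- groups, stromal fibroblast markers (7 genes) to 840.9, 869.5, 3872 and 3358 CPM and cycling markers (6 genes) to 8.33, 8.52, 1167 and 625.8 CPM. Fibroblast markers (9 genes) summed to 4382 and 2339 CPM in the uninjured tdTomato+ and tdTomato- groups and to 22150 and 9884 CPM at 3 days. Endothelial markers (6 genes, none at 0) went the other way, with 3971 and 4349 CPM in the uninjured and 353.9 and 1505 CPM in the 3-day groups. As a check on the label pericyte, 10 other pericyte markers summed to 6543, 6565, 1037 and 7149 CPM in the 4 groups. Much of these sums was *Vtn*, which alone was at 3375, 3243, 379.1 and 4586 CPM. In the 3-day tdTomato+ group the largest part was *Ifitm1*, which did not follow the list. It was at 369.7, 281.4, 463.9 and 471.2 CPM in the 4 groups. The 3-day tdTomato- sum was uneven between plates, at 9795 and 4748 CPM on plates 211 and 215. The part of these lists in the results was not tested.

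The channel genes *Kcnj8* (chr6:142564837-142571614) and *Abcc9* (chr6:142587862-142702766) are neighbours, with 16.25 kb between their RefSeq spans (GRCm38.p6, the assembly that mm10 represents). RefSeq windows of 250 bases before the transcript start were given for 7 members. *Higd1b*, *Ndufa4l2* and *Cd248* had none in the table. The windows of *Kcnj8*, which was near its uninjured level in 3-day tdTomato- cells, of *Atp13a5*, which was not, and of *S1pr3* are printed 5′ to 3′ on the gene's strand, leaving out bases inside the RefSeq gene span. Capitals mark a match to 1 of the 8 motifs searched on both strands.
Kcnj8 (chr6:142571615-142571864, minus strand): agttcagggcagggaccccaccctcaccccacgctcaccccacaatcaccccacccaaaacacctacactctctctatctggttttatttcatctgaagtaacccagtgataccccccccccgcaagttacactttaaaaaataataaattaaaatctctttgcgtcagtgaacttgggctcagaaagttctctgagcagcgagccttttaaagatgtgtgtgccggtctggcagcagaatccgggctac
Atp13a5 (chr16:29378767-29378982, minus strand): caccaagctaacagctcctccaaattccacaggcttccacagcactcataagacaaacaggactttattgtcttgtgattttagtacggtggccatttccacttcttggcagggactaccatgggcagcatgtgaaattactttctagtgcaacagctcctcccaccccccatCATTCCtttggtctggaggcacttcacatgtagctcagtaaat
S1pr3 (chr13:51408368-51408617, plus strand): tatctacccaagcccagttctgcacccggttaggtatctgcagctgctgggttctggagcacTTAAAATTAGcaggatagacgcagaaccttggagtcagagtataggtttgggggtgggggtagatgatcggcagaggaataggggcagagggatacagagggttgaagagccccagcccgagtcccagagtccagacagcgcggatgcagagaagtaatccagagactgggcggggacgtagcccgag
No motif searched matched in the *Kcnj8* window, where 49.2% of the bases were G or C against a median of 52.4% over 32841 windows. The capitals in *Atp13a5* are the reverse complement of GGAATG, the core of the TEAD motif, which was held by 2 of the 7 member windows (*Abcc9* and *Atp13a5*) and 12.6% of all windows. The capitals in *S1pr3* are a MEF2 site, found in 1 of 7 member windows and 2.92% of all. TGGGAA, the RBPJ core, was present in the *Abcc9* window alone (1 of 7, against 21.6% of all windows), where it overlapped the GGAATG match at positions -221 to -216 and -219 to -214. None of the 7 windows held TGTTTAC (forkhead; 3.17% of all windows), GGTGTG (T-box; 16.3%), TATAAA (12.4%), ACGTG (hypoxia response; 16.6%) or a CArG box (1.47%).

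The channel genes were high in 3 of the 4 groups. *Kcnj8* was at 1741 and 1320 CPM on plates 209 and 213 in uninjured tdTomato+ cells, at 1668 and 1703 CPM in uninjured tdTomato- cells, and on plates 211 and 215 at 43.1 and 23.3 CPM in 3-day tdTomato+ cells and 1922 and 953.2 CPM in 3-day tdTomato- cells. The 3-day tdTomato+ values lay below all 6 others, and the 3-day tdTomato- values lay on either side of the uninjured ones. Summed, the levels were 1496.5 (1484 to 1509), 1692 (1676 to 1707), 42.1 (39.8 to 44.4) and 1414 (1400 to 1429) CPM. Across single cells the lowest, median and highest *Kcnj8* level was 0, 1600.5 and 7883 CPM in uninjured tdTomato+ cells and 0, 1703 and 5633 CPM in uninjured tdTomato- cells. In injured cord these values were 0, 0 and 1551 CPM in tdTomato+ cells and 0, 1162.5 and 9187 CPM in tdTomato- cells. *Abcc9*, the partner subunit, ran in parallel at 692.2, 893.7, 23.5 and 608.5 CPM, with 396.0 to 895.7 CPM on the plates of the 3 high groups and 24.6 and 4.17 CPM on plates 211 and 215 in tdTomato+ cells.

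**Figure D1:**
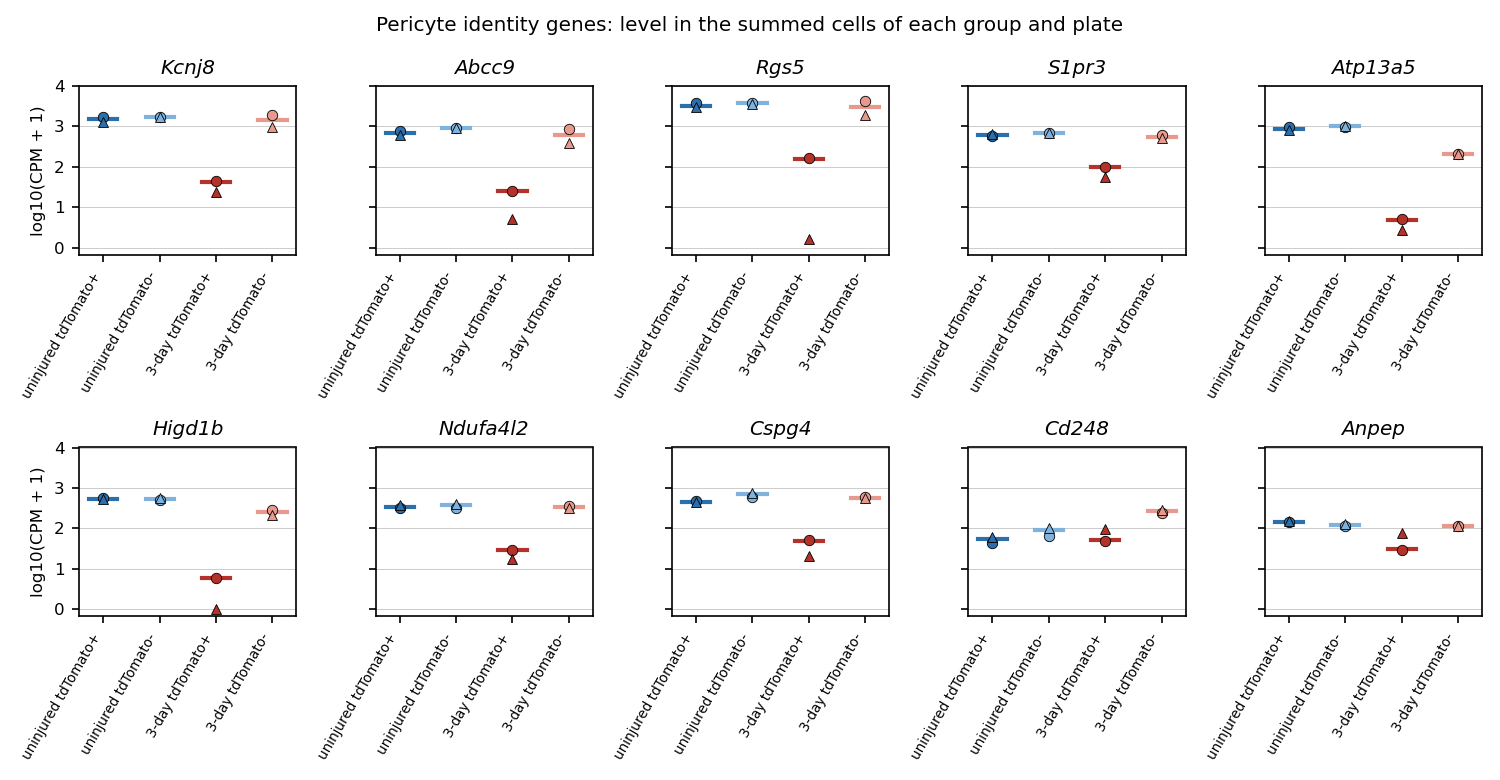
Level of each of the 10 genes (log10 of CPM + 1) in the summed cells of the 4 groups. Bars are group sums, circles are plates 209 (uninjured) or 211 (3 days) and triangles plates 213 or 215; 9 genes sit lowest in 3-day tdTomato+ cells on both plates, and *Cd248* sits highest in 3-day tdTomato- cells.

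The signalling genes differed in how much was left in 3-day tdTomato+ cells. *Rgs5* was at 3740 and 2951 CPM on plates 209 and 213 in uninjured tdTomato+ cells, and at 3871 and 3639 CPM in uninjured tdTomato- cells. At 3 days it stood at 160.2 CPM on plate 211 with a single count on plate 215 in tdTomato+ cells, where 3 counts correspond to 1.79 CPM, and at 4370 and 1903 CPM in tdTomato- cells. Nearly all the remaining *Rgs5* came from few cells: the median 3-day tdTomato+ cell had no count, the highest cell was at 7252 CPM, and 6 cells of plate 211, those with 8 or more members detected at full depth, held 99.7% of the group's *Rgs5* counts. *S1pr3*, by contrast, had a count in 86 cells of the group and none in 36, at 95.1 CPM (91.7 to 98.6) against 617.6, 692.1 and 555.7 CPM in the uninjured tdTomato+, uninjured tdTomato- and 3-day tdTomato- groups. The 6 cells held only 22.5% of its counts in the group.

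*Atp13a5* and *Higd1b* were the only members at least 2-fold lower in both sorts after injury, although *Higd1b* was not past 2-fold in tdTomato- cells under other scalings (below). *Atp13a5* was at 961.2 and 803.8 CPM (plates 209 and 213) in uninjured tdTomato+ cells and at 976.9 and 1011 CPM in uninjured tdTomato- cells. At 3 days it was at 206.9 and 205.0 CPM (plates 211 and 215) in tdTomato- cells, and at 3.97 CPM in tdTomato+ cells of plate 211, with 3 counts in those of plate 215. The 3-day tdTomato- values thus lay below every uninjured plate value and far above the tdTomato+ values. The median 3-day tdTomato- cell was at 15.7 CPM, with a lowest value of 0 and a highest of 2924 CPM, against medians of 845.9 and 792.7 CPM in the uninjured groups. *Higd1b* followed, at 541.8 (534.5 to 549.2), 536.1 (527.3 to 544.9), 4.75 (4.02 to 5.58) and 249.4 (243.4 to 255.6) CPM in the order used above. Only 6 of the 3-day tdTomato+ cells had a *Higd1b* count, and plate 215 had none, which allows up to 1.79 CPM there. *Ndufa4l2*, the other mitochondrial member, was not lower in 3-day tdTomato- cells beyond the plate spread: its levels were 343.2, 374.5, 28.2 and 337.5 CPM, and the 3-day tdTomato- plates (363.3 and 314.1 CPM) lay within the uninjured plate range of 308.3 to 401.3 CPM.

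**Figure D2:**
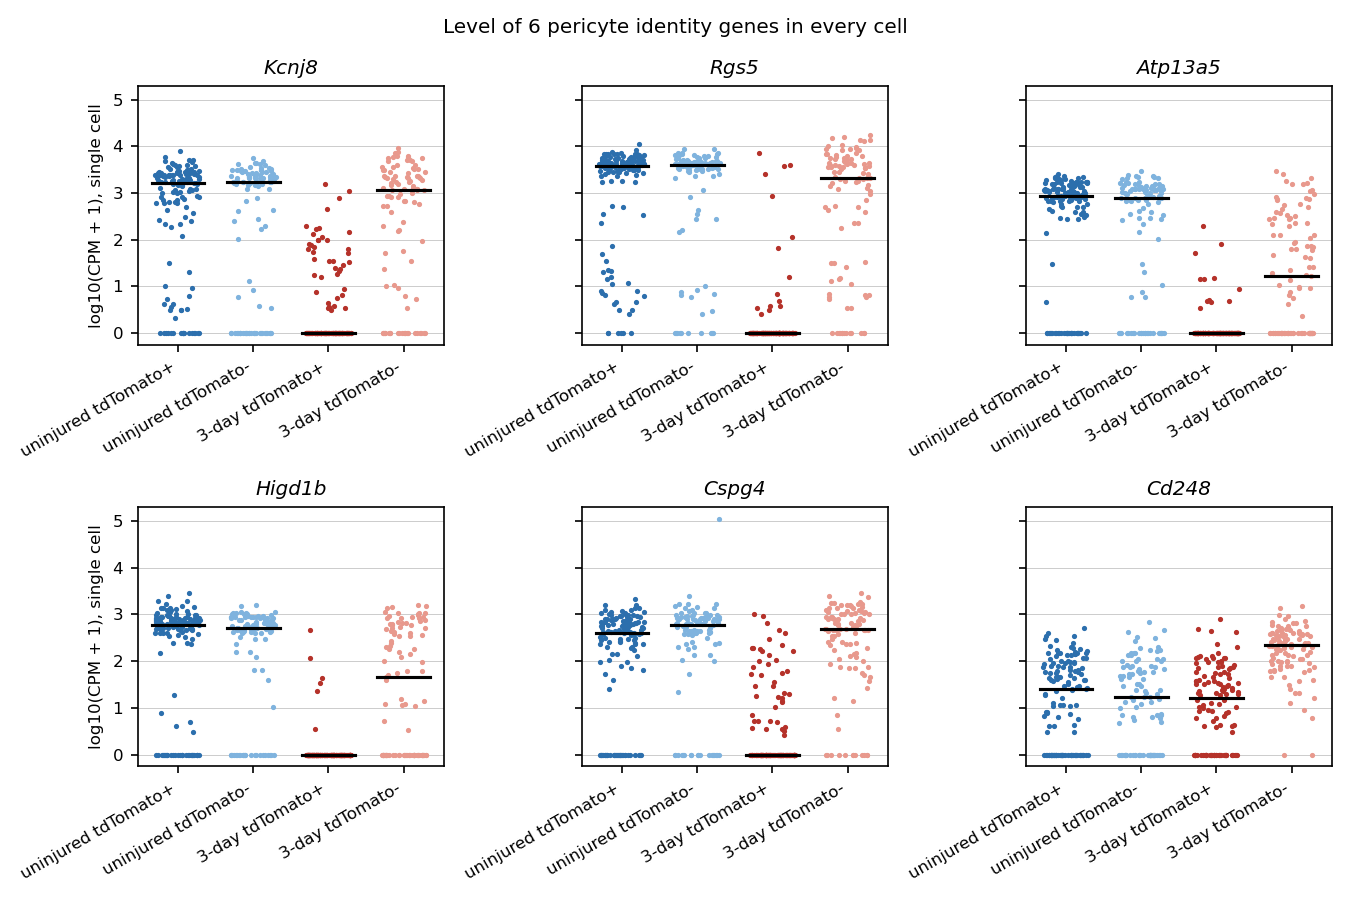
Level of 6 members (log10 of CPM + 1) in each of 468 cells, with black bars at the group medians. *Atp13a5* and *Higd1b* spread from 0 to uninjured levels in 3-day tdTomato- cells, *Kcnj8* and *Rgs5* stay high in most of them, and all but *Cd248* have a median of 0 in 3-day tdTomato+ cells.

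The 3 surface genes differed from one another. *Cspg4* was at 470.7 and 438.4 CPM on the plates of uninjured tdTomato+ cells, 610.9 and 733.3 CPM in uninjured tdTomato- cells, 49.3 and 19.1 CPM in 3-day tdTomato+ cells, and 594.5 and 553.0 CPM in 3-day tdTomato- cells. In uninjured cord it was lower in the tdTomato+ than in the tdTomato- cells of the same plate on both plates. *Cd248* was at 42.5 and 59.1 CPM in uninjured tdTomato+ cells, 62.8 and 99.6 CPM in uninjured tdTomato- cells, 46.7 and 92.4 CPM in 3-day tdTomato+ cells, and 241.5 and 290.5 CPM in 3-day tdTomato- cells, so the last group lay above the other 3 on every plate. Only 2 of its cells lacked a *Cd248* count, against 34 of the uninjured tdTomato- cells. *Anpep* was at 144.95, 121.7, 29.9 and 115.2 CPM, and its 3-day tdTomato+ plates stood at 27.4 and 75.1 CPM, below the lowest value of any other group (110.6 CPM).

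In uninjured cord the sorts were compared in the summed cells, with the sign checked within plates 209 and 213. The question was whether GLAST-lineage cells, as a group, carry the pericyte genes to the same extent as the other EGFP+ cells. The sorts held different mixtures of cell types (clusters below), so a difference is of the group and not of like cells. No member was 2-fold lower or higher in tdTomato+ cells with the same sign on both plates (0 and 0 of 10), while 3.61% and 4.31% of 11198 genes at 10 CPM or more were. A difference was taken on the log2(CPM + 1) scale throughout, and its median over the members was -0.18 (-0.32 and -0.05 on the plates) beside 0.01 over all genes. The lowest were *Cd248* (-0.74, plates -0.74 and -0.55) and *Cspg4* (-0.62, plates -0.74 and -0.38). *Anpep* was higher, by 0.25 (0.23 and 0.33 on the plates).

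At 3 days the same comparison separated the sorts. All 10 members were at least 2-fold lower in tdTomato+ cells and lower on both plates, against 17.9% of 10631 genes that were lower by this rule and 4.31% that were higher. The median was -3.95 in the summed cells, with -0.32 over all genes, and lay outside the within-plate values of -5.04 and -4.19. Plate 211 gave 94.6% of the tdTomato+ counts but 47.6% of the tdTomato- counts, so the summed values mix plates. In the summed cells *Higd1b* (-5.44), *Atp13a5* (-5.41) and *Kcnj8* (-5.04, or 32.9-fold) were furthest apart, and *Abcc9* (-4.63) and *Rgs5* (-4.33) followed. *Cd248* (-2.42, or 5.34-fold) and *Anpep* (-1.91, or 3.76-fold) were least far apart. Within plates *Kcnj8* differed by -5.44 and -5.30, and *Rgs5* by -10.2 and -4.76, where plate 215 had 1 tdTomato+ count. Without plate 211, 9 of 10 met the rule, since *Anpep* differed by only -0.61 on plate 215. *Ndufa4l2*, *Cspg4* and *S1pr3* lay between at -3.54, -3.56 and -2.53.

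Injury was compared with uninjured cord within each sort, over 4 pairs of plates. In tdTomato+ cells 9 of 10 members were 2-fold lower with the same sign in every pair, and none was higher. By the same rule 34.3% of 11429 genes were lower and 10.8% higher, and the median was -3.99 over the members and -0.59 over all genes. The largest differences were -7.49 for *Atp13a5* (pairs -8.43 to -7.34), -6.56 for *Higd1b* and -5.12 for *Kcnj8* (pairs -6.17 to -4.90). *Cd248* was the exception, at 52.2 and 49.2 CPM before and after injury, a difference of -0.08 whose pairs ran from -0.33 to 1.10 and which became 0.58 with edgeR TMM and 0.72 with DESeq2 size factors. These scalings moved the median of all genes from -0.59 to 0.07 and 0.20 and the share of higher genes among those past 2-fold from 23.997% to 52.5% and 58.9%. All 9 members stayed 2-fold lower under both scalings.

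In tdTomato- cells 2 of 10 members were 2-fold lower after injury, *Atp13a5* (-2.27, pairs -2.30 to -2.23) and *Higd1b* (-1.10, pairs -1.35 to -0.81), and 1 was higher, *Cd248* (1.60, pairs 1.27 to 2.19). Among 11434 genes 17% were lower and 9.52% higher, so the members' counts were close to the background in both directions. The other 7 differed by -0.55 (*Abcc9*) to -0.08 (*Anpep*), and the median of the 10 was -0.27 beside -0.20 over all genes. With TMM or DESeq2 scaling *Higd1b* stood at -0.82 and -0.86, under the 2-fold limit, and without plate 215 *Atp13a5* alone was 2-fold lower. Without plate 211, *Abcc9* joined them (3 of 10). With TMM, *Kcnj8* (0.03), *Rgs5* (0.01), *Cspg4* (0.01), *Ndufa4l2* (0.14) and *Anpep* (0.21) changed sign, so no direction is read for these genes. The median of all genes went from -0.20 to 0.07 and 0.03 and the share of higher genes past 2-fold from 35.9% to 55.5% and 52.5%; in the 3-day sort comparison it went from 19.4% to 42.9% and 54.4%, with all 10 members still lower.

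The difference between the injury effects, tdTomato+ minus tdTomato-, had a median of -3.78 over the members in the summed cells. This lay outside the range of the pairs of plates, -4.89 to -3.97. Its size was largest for *Higd1b* (-5.46), *Atp13a5* (-5.21) and *Kcnj8* (-4.86) and smallest for *Anpep* (-2.16) and *Cd248* (-1.68). All 10 were negative in every pair of plates. The median of 12081 genes was -0.39.

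The members were then counted cell by cell, after thinning every cell to 20000 counts and leaving out shallower cells (10, 14, 22 and 1 in the order of groups used above). The median cell had 9 members with a count in both uninjured groups, 2 in 3-day tdTomato+ cells and 8 in 3-day tdTomato- cells. Unthinned medians were 9, 9, 3 and 9. Cells with 8 or more members made up 77.2% (68.9% to 84.1%, 98 cells) of uninjured tdTomato+, 72.8% (62.6% to 81.6%, 67 cells) of uninjured tdTomato-, 5.00% (1.64% to 11.3%, 5 cells) of 3-day tdTomato+ and 55.9% (45.7% to 65.7%, 57 cells) of 3-day tdTomato- cells. Cells with 2 members or fewer numbered 18 (14.2%), 10 (10.9%), 69 and 18 (17.6%) in these groups, and the remaining cells had 3 to 7.

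**Figure D3:**
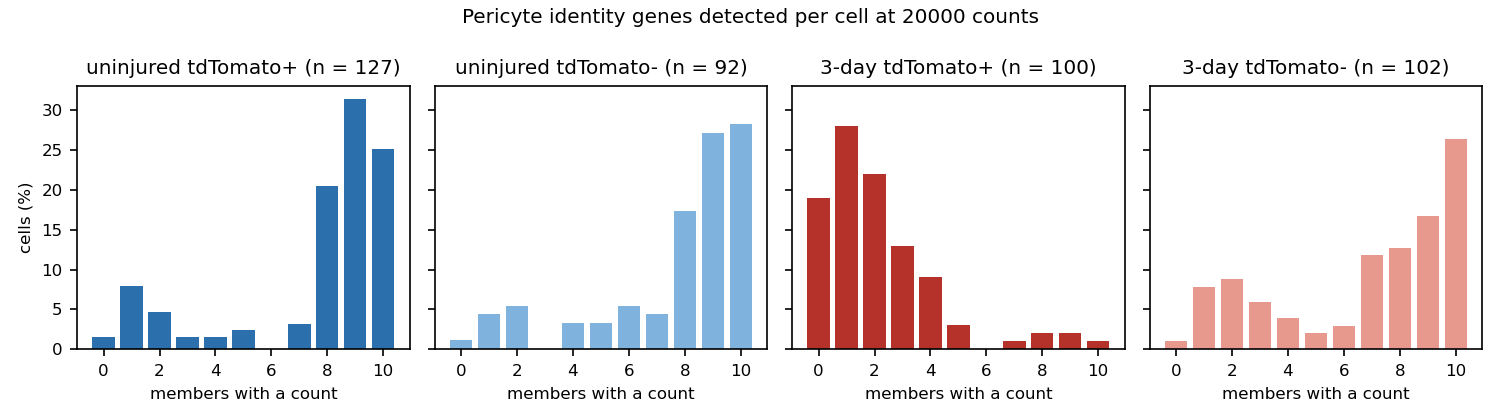
Share of cells (%) by the number of members with a count, at 20000 counts per cell, in the 4 groups. The uninjured and 3-day tdTomato- groups pile up at 8 to 10 members, and 69 of 100 3-day tdTomato+ cells have 2 or fewer.

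Gene by gene, *Kcnj8* had a count in 81.9% of uninjured tdTomato+, 76.1% of uninjured tdTomato-, 21% (13.5% to 30.3%, 21 of 100 cells) of 3-day tdTomato+ and 69.6% of 3-day tdTomato- cells. The 3-day tdTomato+ share was no higher than in cluster 4, the fibroblast-like cluster described below, where *Kcnj8* had a count in 23.2% of 69 cells thinned alike (median full depth 254442 counts against 271660 in the group). The same was true of *Abcc9* (10 of 100 cells, against 10.1%) and *Rgs5* (8 of 100 cells, against 10.1%). Cluster 4 is no floor, since it included 18 of the 3-day tdTomato+ cells. Its 26 uninjured tdTomato+ cells summed to 104.6 CPM for *Kcnj8* and 224.4 CPM for *Rgs5* (median cells 2.04 and 6.51 CPM). The comparison therefore cannot tell whether these shares are expression beyond the 6 cells above. *Atp13a5* was found in 6 of 100 cells (2.23% to 12.6%) against 1.45%, and *Higd1b* in 2 of 100 (0.243% to 7.04%) against 1.45%. *S1pr3* stood higher, in 51 of 100 (40.8% to 61.1%) of the 3-day tdTomato+ cells against 30.4% of cluster 4.

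Where a member was still detected in 3-day tdTomato- cells, its level could be compared at the level of the positive cell. The median of cells with a *Kcnj8* count was 1932, 2179 and 1940 CPM in the uninjured tdTomato+, uninjured tdTomato- and 3-day tdTomato- groups, and that of *Rgs5* cells 4237, 4294 and 3734 CPM. *Atp13a5* was lower on both counts: it had a count in 46.1% (36.2% to 56.2%) of 3-day tdTomato- cells against 81.5% (72.1% to 88.9%) of uninjured ones, and the median of positive cells was 289.8 against 1155.5 CPM. *Higd1b* was found in fewer cells, 49.02% (38.98% to 59.1%) against 86.96% (78.3% to 93.1%), but at 559.6 against 601.9 CPM in those that had it. For *Cd248* the share was 86.3% (78.04% to 92.3%) against 46.7% (36.3% to 57.4%), and the median of positive cells 246.8 against 97.8 CPM.

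Co-detection in the same thinned cells differed between pairs of members. *Kcnj8* and *Abcc9*, the channel subunits, were found together in 97 uninjured tdTomato+, 66 uninjured tdTomato- and 68 3-day tdTomato- cells, and apart in 10, 6 and 5 cells. *Kcnj8* without *Atp13a5* was seen in 5 and 1 uninjured tdTomato+ and tdTomato- cells but in 29 of the 3-day tdTomato- cells, where 42 had both. *Rgs5* without *Atp13a5* was found in 6 uninjured and 32 3-day tdTomato- cells. Of the 47 3-day tdTomato- cells with *Atp13a5*, 41 also had *Higd1b*, 42 *Kcnj8* and 46 *Rgs5*. *Kcnj8* with *Cd248* was found in 67 of the 3-day tdTomato- cells, 65.7% (55.6% to 74.8%), against 37 of the uninjured ones, 40.2% (30.1% to 50.96%). Of the 3-day tdTomato+ cells 12 had both, 24 *Cd248* alone, 9 *Kcnj8* alone and 55 neither. *Cd248* was thus in 57.1% of the cells with *Kcnj8*, against 36% of all cells of the group.

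Spearman correlations across cells, given as a description, had a median of 0.70 over the 45 pairs in all 468 cells (0.19 to 0.87) and 0.56 in the 243 uninjured cells. The cells share plates, and depth differs between them. *Kcnj8* with *Abcc9* (0.87) and *Atp13a5* with *Higd1b* (0.87) were the tightest pairs. *Cd248* and *Anpep* stood apart, with medians of 0.32 and 0.37 with the other 9 members, against 0.68 to 0.75 for the other 8. Within 3-day tdTomato- cells *Kcnj8* with *Abcc9* was at 0.89 and *Kcnj8* with *Atp13a5* at 0.58, and *Cd248* with *Anpep* at -0.01. In 3-day tdTomato+ cells the median over pairs was 0.29.

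**Figure D4:**
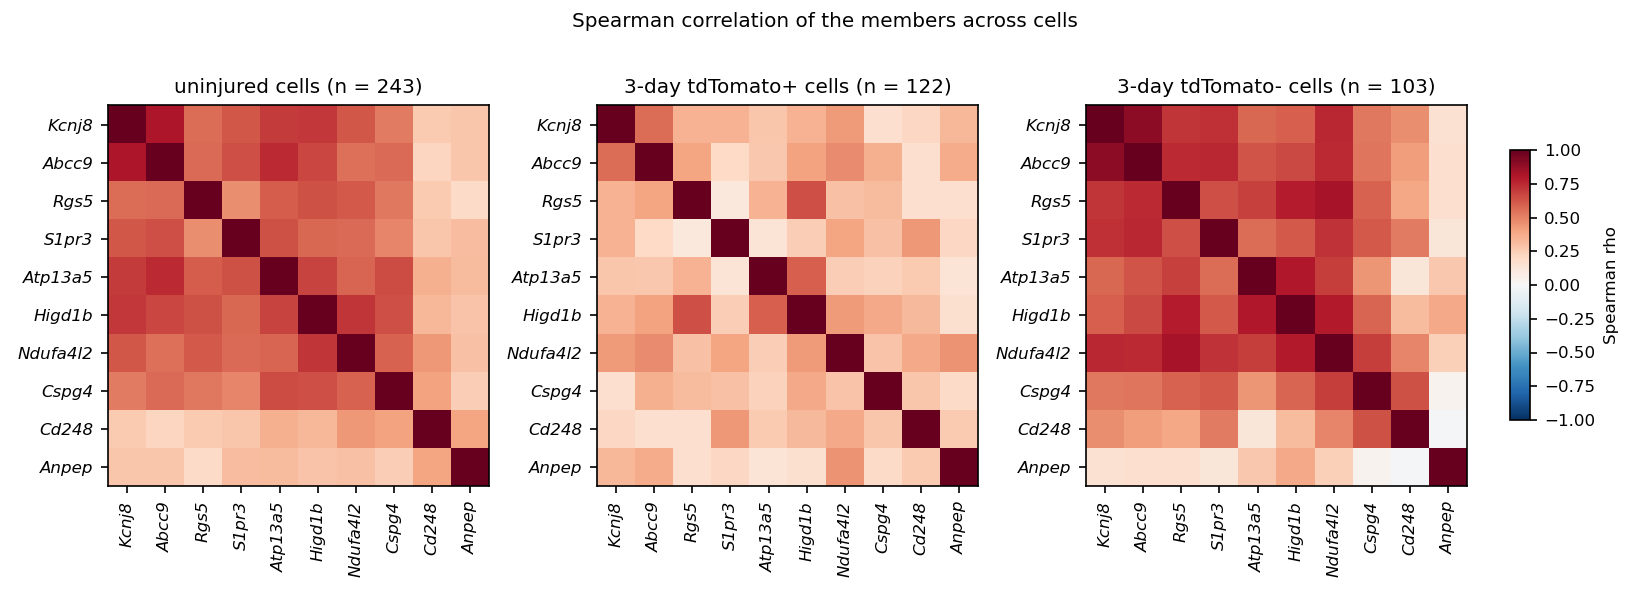
Spearman correlation of each pair of members across cells, in 243 uninjured cells and in the 3-day tdTomato+ and tdTomato- cells. Colour gives rho from -1 to 1. *Cd248* and *Anpep* form pale rows and columns in uninjured cells, and 3-day tdTomato+ cells are pale, with *Rgs5* and *Higd1b* (0.64) the highest pair.

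Clusters were formed with the members left out of the variable genes, which gave 6 clusters. Cluster 4 (71 cells, 9 of 9 fibroblast markers raised, *Pi16* among its leading genes) was perivascular fibroblast-like, and cluster 6 (18 cells, 6 of 7 vSMC markers raised, led by *Pln*, *Lmod1* and *Myh11* among others) was vSMC-like. Cluster 4 held 26 uninjured tdTomato+, 8 uninjured tdTomato-, 18 3-day tdTomato+ and 19 3-day tdTomato- cells. In the same order, cluster 6 held 3, 14, 0 and 1. The part of this mixture in the differences between groups was not tested. The other clusters are given by number. Cluster 1 had all 6 cycling and 6 of 9 fibroblast markers raised and held 81.97% of the 3-day tdTomato+ cells. Its median cell had no count of 7 of the 10 members. Clusters 2 and 3 held 43.1% and 28.5% of the uninjured tdTomato+ cells and 48.1% and 21.7% of the uninjured tdTomato- cells, and had 7 of 10 other pericyte markers but also 6 and 5 of 6 endothelial markers raised. Cluster 5 (48 cells, 47 of them 3-day tdTomato-) had 5 of 10 other pericyte markers and 4 of 7 stromal fibroblast markers raised, with no endothelial marker. Stromal fibroblast markers were also raised in clusters 1 (5 of 7) and 4 (4 of 7). Clusters 1, 4 and 6 had no endothelial marker raised either.

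**Figure D5:**
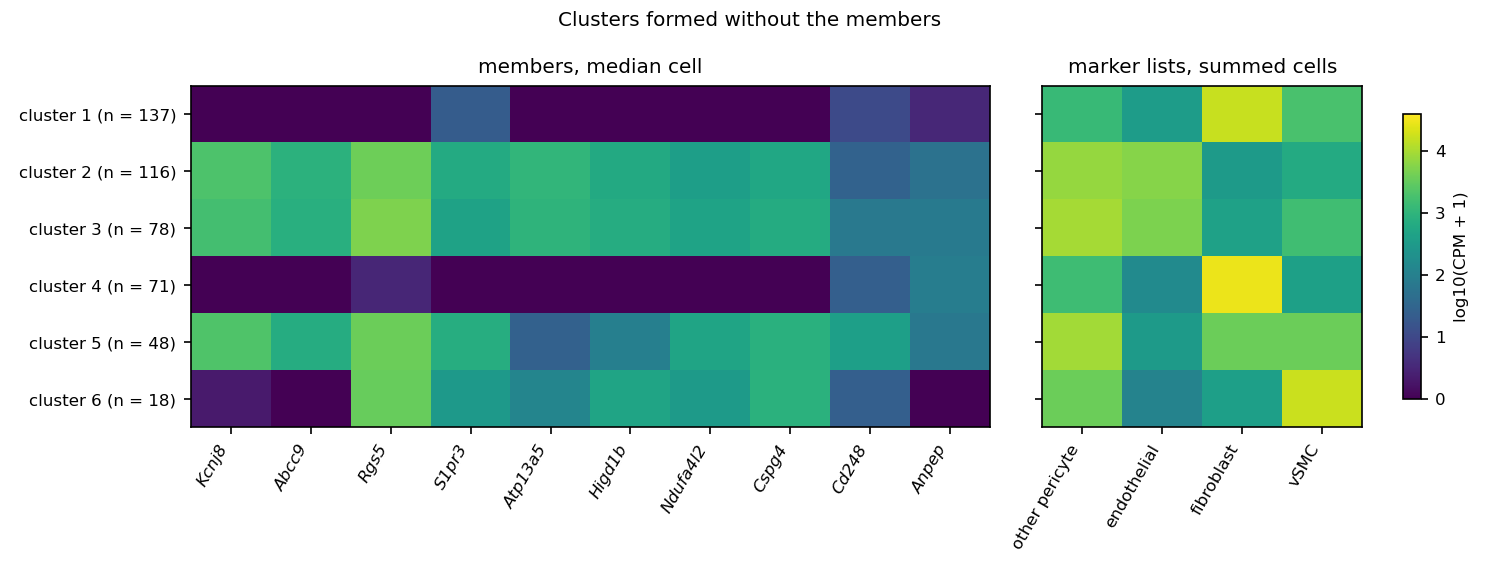
Left, level of each member (log10 of CPM + 1) in the median cell of the 6 clusters formed without the members; right, summed level of 4 marker lists in the summed cells. Clusters 2, 3 and 5 are high for *Kcnj8*, *Abcc9* and *Rgs5*, endothelial markers are highest in clusters 2 and 3, and cluster 5 is low for *Atp13a5*.

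The members split along these clusters. The median cell of clusters 2, 3 and 5 was at 2095, 1652 and 2122 CPM for *Kcnj8* and at 3878, 5225 and 3734 CPM for *Rgs5*, and at 0 and 2.17 CPM for these genes in cluster 4. *Atp13a5* was at 1086 and 973.6 CPM in clusters 2 and 3 but 25.3 CPM in cluster 5, *Higd1b* at 617.9, 709.3 and 97.5 CPM, and *Cd248* at 26.5, 71.8 and 388.9 CPM. The vSMC-like cluster 6 had *Rgs5* (3329 CPM), *Cspg4* (872.0 CPM) and *Higd1b* (490.2 CPM) in its median cell with little of the channel, *Kcnj8* being at 1.17 CPM and *Abcc9* at 0. In the fibroblast-like cluster 4, *Anpep* was at 86.8 CPM, *Cd248* at 23.9 CPM and *Rgs5* at 2.17 CPM, and the other 7 had a median of 0.

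The 3-day tdTomato- cells of clusters 2, 3 and 5 had high members and differed in *Atp13a5*. The 14 such cells in cluster 3 were at 646.7 CPM, against 1399 CPM in 23 uninjured tdTomato- cells of that cluster, and the 47 in cluster 5 were at 204.2 CPM. *Higd1b* was at 610.6, 727.6 and 285.9 CPM in these sets, and *Kcnj8* at 2063, 2298 and 2243 CPM. *Cd248* was at 142.9, 86.98 and 423.5 CPM. The endothelial markers summed to 7990, 4215 and 326.2 CPM in the same sets. *Rgs5* was at 5508, 5459 and 4541 CPM, *Abcc9* at 932.2, 1171 and 906.0 CPM and *Cspg4* at 632.5, 838.8 and 794.0 CPM. The 5 3-day tdTomato- cells in cluster 2 were at 371.7 CPM for *Atp13a5*, 431.5 for *Higd1b*, 1411 for *Kcnj8*, 2962 for *Rgs5* and 203.2 for *Cd248*, with endothelial markers at 5177 CPM. Within groups, Spearman correlations of the members with the summed endothelial list across cells were 0.02 to 0.43 in uninjured tdTomato+, 0.08 to 0.50 in uninjured tdTomato-, 0.04 to 0.38 in 3-day tdTomato+ and -0.24 to 0.28 in 3-day tdTomato- cells. The part of endothelial RNA in the levels of *Atp13a5* and *Higd1b* was not tested.

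Among 5933 other genes, the 10 whose ranks followed the mean rank of the members most closely over all 468 cells included *Art3* (rho 0.86), *Cox4i2* (0.84), *Vtn* (0.84), *Gucy1b1* (0.83), *Rgs4* (0.81), *Adap2os* (0.80), *Plxdc1* (0.80), *Car4* (0.80) and *Gucy1a1* (0.80). *Gucy1a1* and *Gucy1b1* encode the subunits of the soluble guanylate cyclase that senses nitric oxide, and *Cox4i2* is a subunit of cytochrome c oxidase. Of the 10, 5 were on the list of 20 other pericyte genes described next. Ranked within the 243 uninjured cells, 3 of the 10 stayed in the first 10. *Gucy1b1* was at 635.4, 866.5, 31.5 and 484.6 CPM in the 4 groups and *Car4*, a carbonic anhydrase, at 1110, 1202.5, 76.03 and 1023 CPM.

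The 20 other pericyte genes followed the members in the 3-day sort comparison. There 16 were 2-fold lower in tdTomato+ cells and none higher (median -2.58), against 17.9% and 4.31% of all genes (median -0.32). *Art3* (-4.97), *Gper1*, a G-protein coupled receptor (-4.80), and *Notch3*, a Notch receptor of mural cells (-4.77), differed most. With injury, 15 of 20 were lower in tdTomato+ cells and none higher (median -2.69), against 34.3% and 10.8% of all genes (median -0.59). Among the lower ones were the transporter gene *Slc6a20a* (-5.96), *Art3* (-5.63) and *Cox4i2* (-5.11). In tdTomato- cells 5 of 20 were lower and 2 higher (median -0.47), against 17% and 9.52% of all genes. The lower ones included *Slc6a20a* (-2.20), the transcription factor genes *Foxc1* (-1.80) and *Foxf2* (-1.55), and *Slc19a1*, a folate carrier (-1.59). For *Foxc1* 1 uninjured tdTomato- cell held 50.1% of the group's counts, and without it the difference was -0.88, under the 2-fold limit. The higher ones were *Des*, which encodes the intermediate filament desmin (1.86, or 105.1 and 383.9 CPM), and *Mcam*, an adhesion molecule (1.05, or 472.2 and 979.0 CPM). In uninjured cord 0 of 20 passed the rule in either direction (median -0.15), against 3.61% lower and 4.31% higher among all genes.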

How the data were processed

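Perivascular cells were sorted into 384-well plates, and Smart-seq3 libraries were made of single cells. The deposited count table holds whole-number counts per gene and cell, made by the authors against mm10; the aligner, the counter and whether reads or molecules were counted are not given in the sources used here. Of 1968 cell columns, 503 matched the labels and 1465 were not used. Cells with at least 200 genes and under 20% mitochondrial counts were kept (502), and 34 with *Pecam1* above both 1 (log-normalised to 10000) and *Pdgfrb* were left out, leaving 468. None was removed for *Gfap* or *Ptprc*, and no doublet caller was run. The 92 ERCC rows (0.0314% of counts) were left out. Counts were summed by group and plate and scaled to CPM, and differences taken on log2(CPM + 1). A gene was called at 2-fold with the same sign on both plates or in all 4 pairs. Pooled values weight plates by depth. Clusters used Seurat 5.3.0 (2000 variable genes without the members, 20 components, resolution 0.5) with genes detected and mitochondrial and ribosomal shares regressed; a marker was raised at a log2 difference of 0.5 and detection in 50% of cells. Genes most like the members were at 50 CPM in a group and counted in 20% of cells, leaving out mitochondrial, ribosomal protein and unnamed genes. Of the other pericyte genes, up to 4 past 2-fold per direction are named, by size. A gene that these rules select is not reported here. edgeR 4.0.16 and DESeq2 1.42.0 gave alternative scaling factors. Promoter windows came from RefSeq (GRCm38.p6). The calling rule was tested on simulated counts, which had no plate effect and no mixture of cell types. The thinning was checked on a few real cells, for its totals and bounds only. The members and lists were chosen with earlier results of these data known.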

Additional observations from a re-analysis of the deposited data

Results flagged for a closer look

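All 10 members were also found in the 34 cells left out for high *Pecam1*, which no comparison above used. These were 21 uninjured tdTomato+, 11 uninjured tdTomato- and 2 3-day tdTomato- cells. Their summed levels were 839.1 CPM for *Kcnj8*, 398.3 for *Abcc9*, 3181 for *Rgs5*, 297.6 for *S1pr3*, 426.0 for *Atp13a5*, 350.3 for *Higd1b*, 248.2 for *Ndufa4l2*, 357.4 for *Cspg4*, 17.3 for *Cd248* and 51.3 for *Anpep*, where 3 counts correspond to 0.345 CPM. The median such cell had 9 members with a count. With these cells kept, as an alternative setting, the median difference over the members was -0.21 (sort, uninjured) and -3.92 (sort, 3 days). With injury it was -3.96 in tdTomato+ and -0.25 in tdTomato- cells.

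No member had injury effects of opposite sign in the 2 sorts in every pair of plates. Of the other pericyte genes, 4 did, lower after injury in tdTomato+ and higher in tdTomato- cells in all 4 pairs: *Notch3* (difference of the injury effects -4.30 on the log2 scale), *Mcam* (-2.37), *Pla1a* (-2.21) and *Pdgfrb* (-0.71). These differences were not tested. The rule has no size limit and its share over all genes was not computed, so the count is not read as a result about these genes. With TMM and DESeq2 scaling the injury effect of *Pdgfrb* in tdTomato+ cells, -0.31 in CPM, became 0.37 and 0.51, so that its signs were no longer opposite.

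ERCC spike-in counts were present in every cell of plate 211 (41040 counts) and in no cell of the other 3 plates.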

How the results depend on the processing

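Of the alternative values of the summary results, 87 moved by no more than the spread between plates (counts by no more than 1.5 times) and 24 moved further. No median of 2-fold or more changed sign. Counts of members were not checked for reversed genes, and a setting below had such a gene. For single genes and shares, 90 alternatives stayed within that spread and 19 moved.

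The median over the members in the uninjured sort comparison became 0.030 with the mean of single-cell CPM, with 1 member lower (*Cspg4*, which took 210 of the 1923 counts of 1 shallow cell), and 0.69, with 3 members higher, with the limit of 1200 genes, which left 33 cells and none in the 3-day tdTomato- group, so the comparisons that need that group have no value under it. Under that limit injury in tdTomato+ cells gave -2.53 with 3 members lower and 2 higher. The full data had 9 lower and only *Cd248* not lower, so a member lower there was higher under the limit. DESeq2 factors gave -3.19 for injury in tdTomato+ cells and -3.22 for the difference of the injury effects. With injury in tdTomato- cells, 1 member was lower with TMM and with DESeq2 factors. Leaving out a plate gave medians of -5.04 to -4.19 (3-day sort), -5.22 to -3.94 (injury, tdTomato+), -0.64 to -0.082 (injury, tdTomato-) and -4.64 to -3.72 (difference of the injury effects), and 1 to 3 members lower with injury in tdTomato- cells; the values furthest from the full data came without plate 211, apart from the count of 1, without plate 215.

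Members detected per median cell were 8 in both uninjured groups when thinned to 10000 or when 3 counts were needed. For 3-day tdTomato+ cells they were 1 at 10000, 3 unthinned and 0 at 3 counts, and for 3-day tdTomato- cells 9 unthinned and 7 at 3 counts. The median correlation was 0.56 in uninjured cells alone. No paired analysis was possible because the labels name no animal and each group counted as 1 sample, beyond the differences within plates given in the report. The causes were not tested beyond these settings, and 2 plates a treatment limit what the spread can show.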
